A study of Homo sapiens with 9 samples.

Results

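The 10 genes described here encode histone chaperones and, in HAT1, an acetyltransferase of new histone H4, and are called histone chaperones for short. Their counts were taken by symbol from a table of 30017 genes measured by RNA-seq in MOLM13 cells. They were NASP, ASF1A, ASF1B, HAT1, CHAF1A, CHAF1B, HIRA, DAXX, SSRP1 and SUPT16H, and each of the 10 was found and passed the filter on low counts that left 12712 genes for testing. NASP was selected on its measured counts in these libraries, for a large fold change with the hairpin Sh-DDX41_1 and not with Sh-DDX41_2, so its values are given as a description without a test. The other 9 were chosen as chaperones of DNA replication and transcription.

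MOLM13 is a human acute myeloid leukemia cell line of monocytic type. The cells had been transduced with pLKO-GFP lentivirus made in 293T cells and carrying a control hairpin (sh-Control) or 1 of 2 hairpins against DDX41 (Sh-DDX41_1 and Sh-DDX41_2), then sorted for GFP on day 4. All groups therefore had the same vector and the same steps of infection and sorting, though each hairpin was a separate virus. Each hairpin was assayed in a single line at a single time. DDX41 encodes a DEAD-box RNA helicase, and the study used Sh-DDX41_1 for near complete loss and Sh-DDX41_2 for partial loss. Each degree of loss came from 1 hairpin, so the strength of knockdown and other effects of a hairpin cannot be told apart. Each group had 3 libraries, lettered A, B and D, with 16385238 to 20510032 counts. The study states in general that its quantified assays were done 3 times as biological replicates. It does not name these libraries there, and no label says that the letters mark separate cultures. The p-values therefore measure only the spread between these libraries, which may be technical.

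Newly made histones H3 and H4 are never left free in the cell. NASP holds a reserve of soluble H3-H4, HAT1 acetylates new H4, and ASF1A and ASF1B receive H3-H4 dimers and hand them on to the factors that place them on DNA. CAF-1, made of CHAF1A, CHAF1B and RBBP4, places H3-H4 behind replication forks, HIRA and DAXX place the variant H3.3 outside replication, and FACT, made of SSRP1 and SUPT16H, takes nucleosomes apart and rebuilds them as polymerases pass.

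The knockdown was seen in every library. Levels are in CPM, the counts of a gene relative to all counts of its library after TMM scaling. In the control libraries DDX41 was at 117, 115 and 113 CPM, at 12.2, 12.9 and 9.95 CPM with Sh-DDX41_1 and at 38.9, 39.9 and 42.5 CPM with Sh-DDX41_2, which is 10.2% and 35.2% of the control mean. The 7 markers of myeloid leukemia cells that were checked (CD33, FLT3, SPI1, PTPRC, CEBPA, MPO and LYZ) were all at 104 CPM or more in every library, and their summed level was 2422 to 2617 CPM in sh-Control, 2490 to 2598 CPM with Sh-DDX41_1 and 3353 to 3411 CPM with Sh-DDX41_2. Of 9 markers of other blood, endothelial or epithelial cells, 8 stayed below 2.1 CPM, with MS4A1, HBB and CDH1 among those at 0, while PECAM1 was at 102 to 190 CPM. Library D of Sh-DDX41_1 stood apart from the other 2 of its group, with a chi-square per degree of freedom of 17.9 and 19.6 against 2.93 between A and B, so results that rest on it are also given without it. Library pairs of sh-Control gave 8.22 to 10.4 and those of Sh-DDX41_2 gave 2.47 to 3.29, and none was within sampling noise.

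The promoters of these genes are shown first because most of the members moved together. RefSeq sequences (GRCh38.p14) were available for 9 of the 10 genes, each running from 250 bases before to 50 bases after the start. DAXX had no entry in that table. The lines below give the 100 bases before the start, 5′ to 3′ along the gene, for NASP, for the ASF1A and ASF1B paralogs, for CHAF1A and for HIRA, which was not called lower. Capitals mark 3 motifs common in promoters of dividing cells, searched on both strands. They are the E2F site (TTTGGCGC, TTTCCCGC, TTTGCCGC or TTTCGCGC), the CCAAT box (CCAAT, or ATTGG on the other strand) and the cell cycle homology region, CHR (TTTGAA or TTCGAA).
NASP, chr1:45583941-45584040, plus strand: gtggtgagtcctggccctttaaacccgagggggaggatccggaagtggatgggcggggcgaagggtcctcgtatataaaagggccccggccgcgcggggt
ASF1A, chr6:118894052-118894151, plus strand: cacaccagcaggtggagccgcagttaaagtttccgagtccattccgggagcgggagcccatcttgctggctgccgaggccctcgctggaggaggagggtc
ASF1B, chr19:14136590-14136689, minus strand: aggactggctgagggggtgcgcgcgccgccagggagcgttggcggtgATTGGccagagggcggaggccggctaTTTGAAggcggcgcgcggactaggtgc
CHAF1A, chr19:4402540-4402639, plus strand: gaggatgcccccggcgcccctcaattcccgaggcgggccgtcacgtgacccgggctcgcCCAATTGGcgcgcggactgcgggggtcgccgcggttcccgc
HIRA, chr22:19431734-19431833, minus strand: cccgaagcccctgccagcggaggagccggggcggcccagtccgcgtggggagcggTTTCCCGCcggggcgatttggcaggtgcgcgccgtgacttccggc

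Over the full 300 bases, 6 of the 9 members held a CCAAT box, against 34.6% of the 35116 promoters in the table. ASF1B held 3 and CHAF1A held 4, of which the run CCAATTGG carries a pair that overlap on opposite strands. A CHR was found in 1 member, ASF1B, against 16.4% of all promoters, and an E2F motif in 1 member, HIRA, against 3.31%. The E2F letters were thus matched in HIRA and in none of the 8 other members searched, which says only that these exact letters are not in those windows. CHAF1B and SSRP1, both called lower with Sh-DDX41_1, held none of the 3 motifs. The CCAAT match began at 15 from the start in ASF1A and at -3 in SUPT16H. A match is a description and not a binding site.

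NASP had the second highest level per length of the 10 genes in control cells and the ninth with Sh-DDX41_1. To compare genes, CPM was divided by the length of each gene's merged exons in GENCODE v29 (GRCh38), which may not be the annotation the authors counted on. In sh-Control SSRP1 was highest at 185 ± 4.46 CPM per kb (SD, n = 3), followed by NASP at 111 ± 7.77 and HAT1 at 102 ± 8.24, which did not differ beyond their spread. SUPT16H (85.2 ± 3.02), ASF1A (59.1 ± 1.37), CHAF1A (48.1 ± 3.21), ASF1B (39.7 ± 2.34), DAXX (34.2 ± 1.82), HIRA (22.7 ± 0.930) and CHAF1B (8.62 ± 0.243 CPM per kb) came next, each apart from its neighbours by more than the sum of their SDs. With Sh-DDX41_1, NASP was at 17.7 ± 2.37 CPM per kb and could not be separated from ASF1B at 18.5 ± 3.22, and with Sh-DDX41_2 it was at 105 ± 2.81, beside HAT1 at 104 ± 2.32. HIRA (25.8 ± 2.62) and CHAF1A (25.8 ± 0.843) also came level with each other under Sh-DDX41_1.

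NASP lies at chr1:45583846-45618904 on the plus strand (GRCh38, GENCODE v29) and binds soluble H3-H4. Its level was 345, 371 and 397 CPM in libraries A, B and D of sh-Control, 52.3, 68.0 and 57.9 CPM with Sh-DDX41_1 and 345, 362 and 346 CPM with Sh-DDX41_2. Every Sh-DDX41_1 library was far below every other library, and the Sh-DDX41_2 libraries lay inside or at the edge of the control range. The means were 371 ± 26.0, 59.4 ± 7.95 and 351 ± 9.43 CPM, so that Sh-DDX41_1 cells held 16.01% and Sh-DDX41_2 cells 94.6% of the control level. The counts behind them ran from 868 to 1136 with Sh-DDX41_1 and from 5710 to 7545 elsewhere. The log2 fold change was -2.64 (SE 0.0894) for Sh-DDX41_1 against sh-Control, the sixth lowest of 12712 genes, and -2.56 (SE 0.0892) against Sh-DDX41_2, the ninth lowest. For Sh-DDX41_2 against sh-Control it was -0.08 (95% confidence interval -0.26 to 0.09), again a description, since NASP was selected on these contrasts. The contrasts with sh-Control share the same 3 control libraries.

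**Figure D1:**
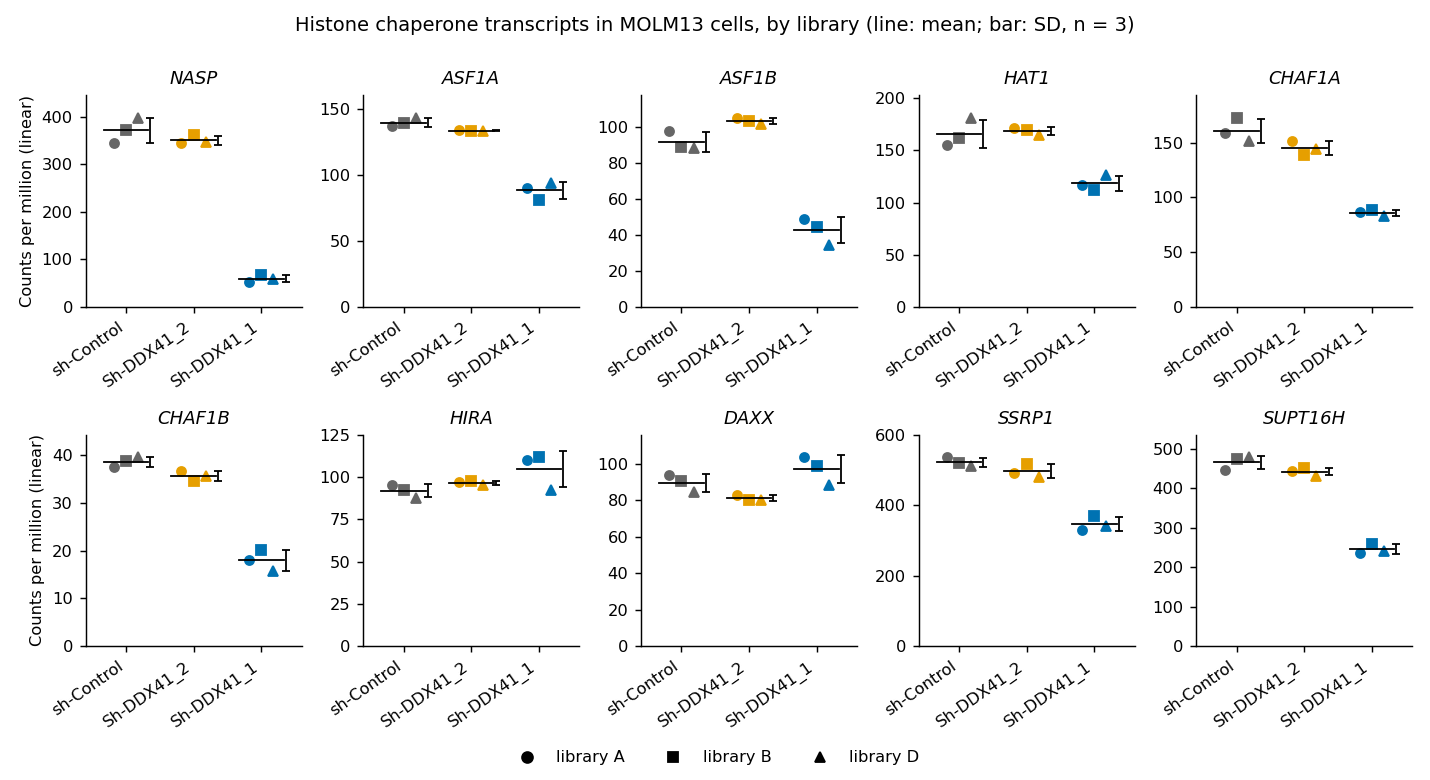
Level of each histone chaperone in CPM (linear vertical axis from 0) in the 3 libraries of each group, with the letter of the library as the symbol, the mean as a line and the SD as a bar. The Sh-DDX41_1 libraries of NASP sit between 52.3 and 68.0 CPM, below all others, while those of HIRA and DAXX reach above the controls.

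With Sh-DDX41_1, 7 of the 9 other members fell, HIRA passed the test narrowly as higher, with overlapping ranges and a call lost on leaving out any of 8 of the 9 libraries, and DAXX did not pass the test. At an adjusted p under 0.05 in edgeR, 24.1% of all tested genes were called lower and 23.7% higher in this contrast. The 7 that fell are the remaining H3-H4 supply genes, the CHAF1A and CHAF1B subunits of CAF-1 and both subunits of FACT, and in all 7 the Sh-DDX41_1 range lay wholly below the control range, as it did for 26.6% of all genes (26.5% lay wholly above). The median log2 fold change of the 9 was -0.66, beside 0.01 over all genes. With Sh-DDX41_2, 0 of the 9 were called by edgeR, against 13.4% of genes called lower and 11.6% higher. At an unadjusted p under 0.05, edgeR and limma voom each gave 1 of the 9 and DESeq2 gave 0, where edgeR gave 37.4% of all genes. That count was 3 with the replicate block, with only the 6 libraries compared and without library D of Sh-DDX41_1, 2 without library D of sh-Control, and 0 without library B of sh-Control, A or B of Sh-DDX41_1, or B or D of Sh-DDX41_2. The Sh-DDX41_2 range lay wholly below the control range in 4 members and wholly above it in 2, against 22.7% and 21.1% of genes, and the median log2 fold change was -0.07.

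The direct comparison of the hairpins gave the same 7 members as lower with Sh-DDX41_1, and DAXX as higher. In that contrast 24.2% of all genes were called lower and 24.6% higher. The ranges of the 7 lay wholly below those of Sh-DDX41_2, as for 28.5% of genes, and that of DAXX wholly above, as for 29.2%. The median of the 9 was -0.60, beside 0.01 over all genes.

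**Figure D2:**
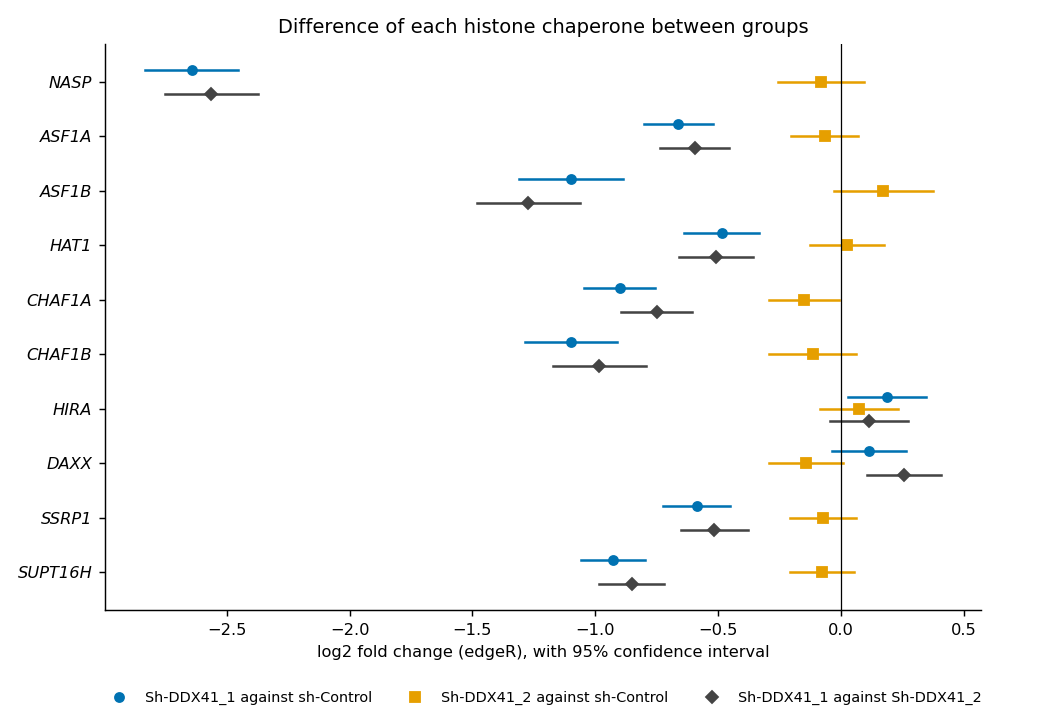
Log2 fold change of each histone chaperone (horizontal axis, edgeR) with its 95% confidence interval in the 3 contrasts. For 7 genes beside NASP both contrasts of Sh-DDX41_1 lie between -1.27 and -0.49, whereas the intervals of Sh-DDX41_2 against sh-Control span 0 for 8 of the 9 members beside NASP, the exception being CHAF1A, which passed no adjusted test.

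Among the genes that supply H3-H4, both ASF1 paralogs and HAT1 fell with Sh-DDX41_1. ASF1A, the paralog present throughout the cell cycle, was at 137, 139 and 143 CPM in sh-Control, at 90.2, 81.2 and 93.6 CPM with Sh-DDX41_1 and at 134, 133 and 133 CPM with Sh-DDX41_2. It kept 63.2% of its control level with Sh-DDX41_1 (log2 fold change -0.66, SE 0.0656, edgeR adjusted p = 1.26e-06). With Sh-DDX41_2 its 3 libraries lay just below the controls, and the difference was not called (-0.07, adjusted p = 0.491).

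ASF1B, the paralog tied to proliferating cells, was at 97.7, 88.7 and 88.1 CPM in sh-Control, at 49.1, 44.5 and 34.6 CPM with Sh-DDX41_1 and at 105, 103 and 102 CPM with Sh-DDX41_2. The groups did not overlap, with library D of Sh-DDX41_1 the lowest of all. The fall with Sh-DDX41_1 was -1.10 on the log2 scale (SE 0.0988, adjusted p = 4.95e-07), or 46.7% of control, and -0.96 without library D. Against Sh-DDX41_2 it was -1.27 (SE 0.0987, adjusted p = 1.16e-07). With Sh-DDX41_2 all 3 libraries were above the controls, at 0.17 (SE 0.0945, adjusted p = 0.198), which became a call when library D of Sh-DDX41_1 was left out of the fit (0.18, adjusted p = 0.0274). An antisense gene overlaps 29 exonic bases of ASF1B, and whether counting used strand is not given in the sources used here.

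HAT1, the acetyltransferase of new histone H4, had the smallest estimated fall of the 7. It was at 155, 162 and 181 CPM in sh-Control, at 117, 112 and 127 CPM with Sh-DDX41_1 and at 172, 170 and 165 CPM with Sh-DDX41_2. Its Sh-DDX41_1 libraries were below all others, and its Sh-DDX41_2 libraries lay among the controls. With Sh-DDX41_1 it held 71.4% of its control level (-0.49 on the log2 scale, SE 0.0714, adjusted p = 6.00e-05), and the difference was 0.02 (SE 0.0707, adjusted p = 0.845) with Sh-DDX41_2.

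Of the 3 subunits of CAF-1, CHAF1A and CHAF1B fell with Sh-DDX41_1 and RBBP4 did not pass the test. CHAF1A, the large subunit that joins CAF-1 to the replication clamp PCNA, was at 158, 172 and 151 CPM in sh-Control, at 86.6, 88.5 and 83.0 CPM with Sh-DDX41_1 and at 151, 139 and 144 CPM with Sh-DDX41_2. The fall was -0.90 (SE 0.0680, adjusted p = 8.96e-08), or 53.6% of control. With Sh-DDX41_2 the level was 90.0% of control (-0.15, SE 0.0666), the only 1 of the 9 at an unadjusted p under 0.05 (0.0383), and it did not hold after adjustment over all genes (adjusted p = 0.111). An antisense gene shares 81 exonic bases with CHAF1A.

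CHAF1B, the middle subunit, was at 37.4, 38.9 and 39.5 CPM in sh-Control, at 18.1, 20.2 and 15.8 CPM with Sh-DDX41_1 and at 36.7, 34.6 and 35.7 CPM with Sh-DDX41_2. No Sh-DDX41_1 library came near the other 6. The fall was -1.10 (SE 0.0886, adjusted p = 1.59e-07), or 46.7% of control, and with Sh-DDX41_2 the difference was -0.11 (SE 0.0834, adjusted p = 0.341). RBBP4, the third subunit and also part of other chromatin complexes, was in the list of further chaperones and did not pass the test with Sh-DDX41_1 (-0.11, SE 0.0585, adjusted p = 0.131).

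Both FACT subunits fell with Sh-DDX41_1. SSRP1 was at 537, 520 and 512 CPM in sh-Control, at 332, 371 and 341 CPM with Sh-DDX41_1 and at 491, 519 and 481 CPM with Sh-DDX41_2, and its log2 fold change with Sh-DDX41_1 was -0.59 (SE 0.0636, adjusted p = 3.13e-06), 66.5% of control. SUPT16H, its partner, was at 448, 473 and 479 CPM, at 236, 260 and 241 CPM and at 445, 451 and 432 CPM in the same order of groups. Its fall was -0.93 (SE 0.0620, adjusted p = 2.73e-08), or 52.6% of control. In both genes the Sh-DDX41_2 libraries overlapped the controls, with -0.07 (adjusted p = 0.431) for SSRP1 and -0.08 (adjusted p = 0.392) for SUPT16H. An antisense gene shares 140 exonic bases with SSRP1.

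Neither chaperone of the replication-independent variant H3.3 was called lower in any contrast. HIRA was at 95.3, 92.4 and 87.8 CPM in sh-Control, at 110, 112 and 92.5 CPM with Sh-DDX41_1 and at 97.1, 97.4 and 95.4 CPM with Sh-DDX41_2. Libraries A and B of Sh-DDX41_1 were above every control, and library D was inside the control range. The difference was 0.19 (SE 0.0746, adjusted p = 0.0484), just under the threshold. The call was lost without any 1 of the other 8 libraries (0.15 to 0.22, adjusted p = 0.0514 to 0.172), with limma voom (adjusted p = 0.0523), with no filter on low counts (adjusted p = 0.0541), with library size only (adjusted p = 0.0966) and with only the 6 libraries compared (adjusted p = 0.0978). Without library D of Sh-DDX41_1 it was 0.28 (adjusted p = 9.87e-04). Against Sh-DDX41_2, HIRA was not called (0.11, adjusted p = 0.217) unless library D of Sh-DDX41_1 was left out (0.20, adjusted p = 0.0120).

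DAXX, which works with ATRX at repeats and telomeres, was at 93.5, 90.7 and 84.3 CPM in sh-Control, at 103, 98.8 and 88.6 CPM with Sh-DDX41_1 and at 82.9, 80.1 and 80.4 CPM with Sh-DDX41_2. The control and Sh-DDX41_1 ranges overlapped, while Sh-DDX41_2 lay below both. Neither difference from sh-Control was called, at 0.12 (SE 0.0709, adjusted p = 0.192) and -0.14 (SE 0.0710, adjusted p = 0.161). Between the hairpins DAXX was 0.26 higher with Sh-DDX41_1 (SE 0.0711, adjusted p = 0.00755). Without library D of Sh-DDX41_1, it was also called against sh-Control (0.19, adjusted p = 0.0231).

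Ratios of partners within a library do not depend on how libraries are scaled. Across 9 exact permutation tests, two-sided, 3 libraries against 3 cannot give a p below 0.1, so none can pass 0.05, and the smallest p adjusted over the 9 was 0.15. ASF1B counts were 0.715, 0.637 and 0.616 of ASF1A counts in sh-Control, 0.544, 0.549 and 0.370 with Sh-DDX41_1 and 0.783, 0.774 and 0.764 with Sh-DDX41_2. The 3 groups did not overlap, in the order Sh-DDX41_1, sh-Control and Sh-DDX41_2. The log2 ratio differed from sh-Control by -0.45 with Sh-DDX41_1 (exact permutation p = 0.1), or by -0.26 without its library D, and by 0.24 with Sh-DDX41_2 (exact permutation p = 0.1). SUPT16H counts were 0.835, 0.911 and 0.936 of SSRP1 counts in sh-Control, 0.711, 0.700 and 0.706 with Sh-DDX41_1 and 0.907, 0.869 and 0.899 with Sh-DDX41_2. The Sh-DDX41_1 ratios were tightly grouped and below the rest, by -0.34 on the log2 scale against sh-Control (exact permutation p = 0.1). CHAF1B counts were 0.190 to 0.228 of CHAF1A counts with Sh-DDX41_1, overlapping the 0.226 to 0.261 of sh-Control (-0.21, exact permutation p = 0.2). With Sh-DDX41_2 they were 0.243, 0.249 and 0.247, within the control range and above every Sh-DDX41_1 library. Between the hairpins the log2 ratio differed by -0.24 (exact permutation p = 0.1).

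**Figure D3:**
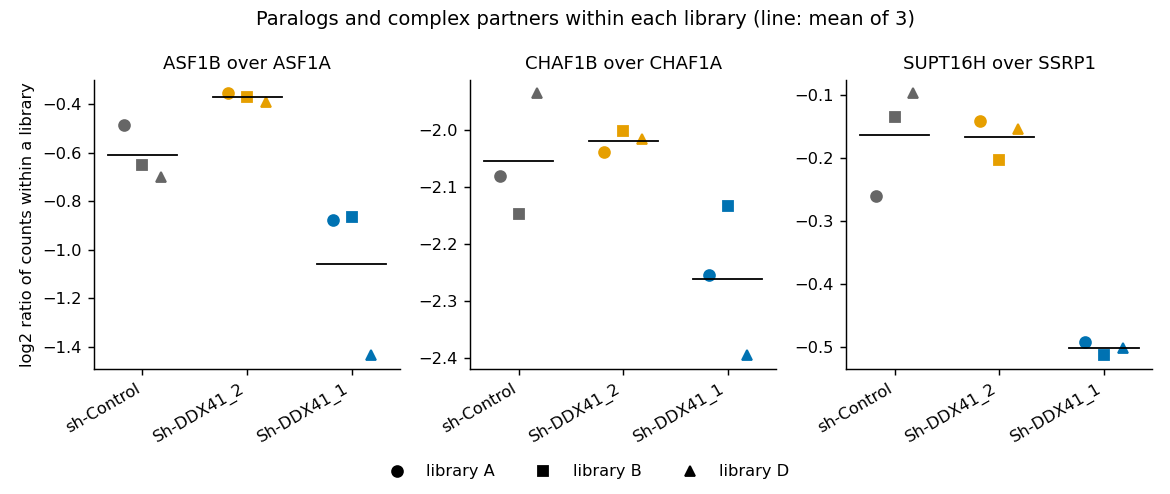
Log2 ratio of the counts of paralogs or complex partners within each library (vertical axis, its range set per panel and not from 0), with symbols for library letters and lines for group means. Library D of Sh-DDX41_1 gives the lowest ASF1B over ASF1A ratio (-1.44), and the 3 Sh-DDX41_1 libraries lie together near -0.50 for SUPT16H over SSRP1.

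Genes of S phase were lower in the same libraries. The 41 genes are a common list for scoring S phase, such as the replication helicase, clamp and nucleotide synthesis genes. Any member of this report that belongs to the common list was left out of it. The members are therefore not a class apart from S phase genes by this choice. With Sh-DDX41_1, 40 of the 41 fell, with a median of -0.82, beside 24.1% of all genes called lower. RPA2 did not pass the test (0.01, adjusted p = 0.883). The summed level of the list was 6730 to 7091 CPM in sh-Control, 3706 to 4114 CPM with Sh-DDX41_1 and 6220 to 6496 CPM with Sh-DDX41_2, and none of the 41 was at 0. Per library the median over the list, on the log2 scale relative to the control mean, was -0.81, -0.75 and -0.92 with Sh-DDX41_1 and -0.10, -0.11 and -0.12 with Sh-DDX41_2. Of the 7 members that fell, ASF1B, CHAF1A, CHAF1B and SUPT16H had fold changes below that median of -0.82, and ASF1A, HAT1 and SSRP1 lay above it. NASP, at -2.64, was below all 41, of which DSCC1, a clamp loader subunit, was lowest at -2.07. Since NASP was selected for its large fold change with this hairpin, its place is a description and not a finding. The part of cell cycle position in the members' values was not tested, and in bulk samples fewer cells of a type and less RNA per cell cannot be told apart.

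**Figure D4:**
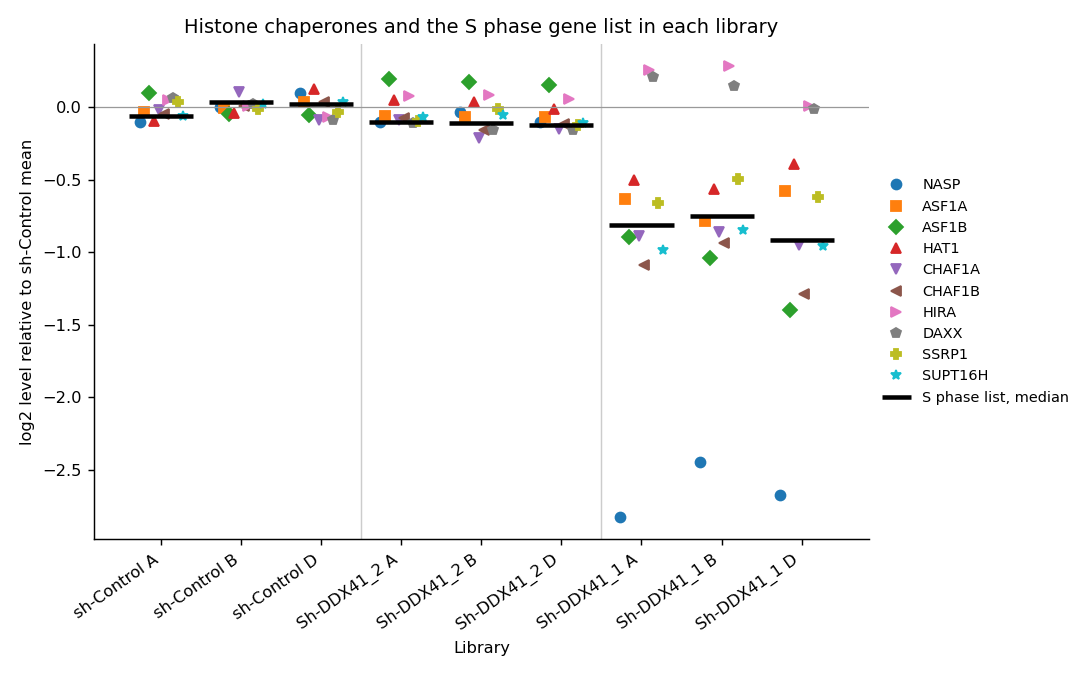
Level of each histone chaperone in each of the 9 libraries (vertical axis, log2 relative to the sh-Control mean), with the median of the 41 S phase genes as a black line. NASP, selected for its fold change with Sh-DDX41_1, lies between -2.82 and -2.44 in those libraries. The S phase median there is -0.92 to -0.75. HIRA and DAXX lie at or above 0 there, except for DAXX in library D at -0.01.

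With the smallest adjusted p, the S phase genes lower with Sh-DDX41_1 were DSCC1, RRM2, a ribonucleotide reductase subunit (-1.63), CLSPN, a checkpoint adaptor (-1.39), and, tied with each other, CCNE2 (-1.67) and CDC45 (-1.44), which encode a cyclin and a helicase component. With Sh-DDX41_2, 8 of the 41 fell (median -0.09), beside 13.4% of all genes, and 13 were at an unadjusted p under 0.05, beside 37.4% of all genes. They were led by MCM6, a subunit of the replication helicase, at -0.98 (adjusted p = 7.64e-08), then CDCA7 (-0.42), which recruits the remodeller HELLS (-0.33), and CDC45 (-0.26). Leaving out library B of sh-Control, or B or D of Sh-DDX41_2, gave 3 calls each, leaving out D of sh-Control or A of Sh-DDX41_2 gave 4, and leaving out D of Sh-DDX41_1 gave 13. Between the hairpins 39 were lower with Sh-DDX41_1 and MCM6 was higher (0.37, adjusted p = 1.96e-04), beside 24.2% of all genes lower and 24.6% higher.

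A wider list of 27 other histone chaperones and their partners held calls in both directions. With Sh-DDX41_1, 10 fell and 4 rose, with a median of -0.11, where 24.1% of all genes were called lower and 23.7% higher. With Sh-DDX41_2, 4 fell and 3 rose, with a median of -0.01, which is near the 13.4% and 11.6% of all genes. By role, 6 of 10 partners of H3-H4 fell with Sh-DDX41_1 and 1 rose, and 3 of 10 chaperones of H2A-H2B or linker histones fell and 1 rose. Of the 4 partners of HIRA and DAXX, 1 fell and 1 rose, and of 3 chaperones of transcription 1 rose. With Sh-DDX41_2 the calls were 1 lower for H3-H4 partners, 2 lower and 1 higher for H2A-H2B or linker histones, 2 higher for partners of HIRA and DAXX, and 1 lower for transcription.

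TONSL, which reads newly placed H4 behind forks, went from 157 ± 10.5 to 78.8 ± 9.24 CPM (SD, n = 3) with Sh-DDX41_1 (log2 fold change -0.998, adjusted p = 2.28e-07). Its partner MMS22L fell by 0.63 on the log2 scale (adjusted p = 1.85e-05). RBBP7, a histone-binding relative of RBBP4, fell by 0.63 (adjusted p = 1.07e-06) and DNAJC9, a chaperone that works with H3-H4, by 0.70 (adjusted p = 5.75e-06). CABIN1, NAP1L4, ANP32E and NCL were among the other genes called lower. Against this direction rose VPS72 (0.45, adjusted p = 8.33e-04), a chaperone of H2A.Z, ATRX (0.21, adjusted p = 0.0181), TLK1 (0.20, adjusted p = 0.0301), a kinase that acts on ASF1, and SUPT6H (0.18, adjusted p = 0.0420), an elongation factor. The rises were weakly held, with 1 instead of 4 called without library D of sh-Control and 2 without library A of Sh-DDX41_1.

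With Sh-DDX41_2 the lowest adjusted p values in this list belonged to the nucleolar chaperones NPM3 and NPM1. NPM3 fell by 0.40 (adjusted p = 0.0115), NPM1, its abundant relative, by 0.31 (adjusted p = 0.0131) and IWS1, a partner of SUPT6H, by 0.21 (adjusted p = 0.0253). ATRX (0.21, adjusted p = 0.0273), UBN2, a subunit of the HIRA complex (0.34, adjusted p = 0.0454), and NAP1L1, an H2A-H2B chaperone (0.25, adjusted p = 0.0486), rose. The count of lower calls was 1 instead of 4 without library D of sh-Control or without any 1 of the Sh-DDX41_2 libraries, and 2 without library B of sh-Control. By edgeR the count of higher calls was 0 instead of 3 without library A of sh-Control or any 1 of the Sh-DDX41_2 libraries, and 1 without library D of sh-Control. Between the hairpins 11 of the 27 were lower with Sh-DDX41_1 and 3 higher, NPM3 (0.52), VPS72 (0.42) and NPM1 (0.33), and 5 were higher without library D of Sh-DDX41_1. Of all genes, 24.2% were called lower and 24.6% higher in that contrast.

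Genes for the histones themselves could be followed for variants made from poly(A) transcripts, 10 of 11 of which passed the filter (H2AFY2 did not). With Sh-DDX41_1, 5 fell and 2 rose (median -0.15), beside 24.1% of all genes called lower and 23.7% higher, so the count that rose is near that of all genes. The falls were led by H2AFX, the variant phosphorylated at DNA breaks (-0.70, adjusted p = 9.49e-07), H2AFZ, which encodes H2A.Z (-0.79, adjusted p = 1.79e-06), CENPA, the centromeric H3 (-0.61, adjusted p = 1.38e-04), and H2AFV, a second H2A.Z gene (-0.33, adjusted p = 3.45e-04). H1F0, the linker histone of resting cells, rose from 5.77 to 10.7 CPM (0.89, adjusted p = 0.00113) and H2AFJ by 0.35 (adjusted p = 0.00495). H3F3A and H3F3B, the genes for H3.3, which HIRA and DAXX carry, were not called. With Sh-DDX41_2, 3 fell, H2AFX (-0.28, adjusted p = 0.00629), H2AFZ (-0.26, adjusted p = 0.0264) and CENPA (-0.29, adjusted p = 0.0382), and 2 rose, H2AFY (0.33, adjusted p = 0.00191), which encodes macroH2A, and H3F3A (0.19, adjusted p = 0.0419). The median was 0.10, and 13.4% of all genes were called lower and 11.6% higher. The count of lower calls was 1 without library D of sh-Control or without library A or D of Sh-DDX41_2. That of higher calls was 1 without any 1 library of sh-Control or Sh-DDX41_2. Between the hairpins 7 were lower with Sh-DDX41_1 and 2 higher, or 1 higher without library D of Sh-DDX41_1 or any 1 library of Sh-DDX41_2. In that contrast 24.2% of all genes were called lower and 24.6% higher, so the higher count is near that of all genes.

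**Figure D5:**
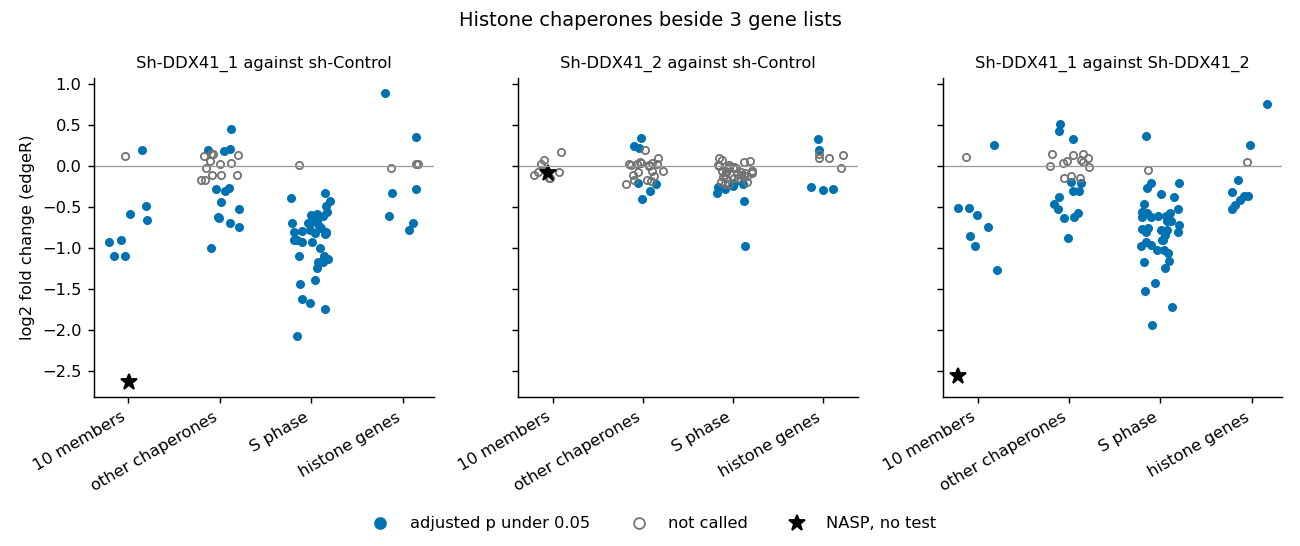
Log2 fold change (vertical axis, edgeR) of the 10 histone chaperones and of the genes of 3 lists in the 3 contrasts, filled where the adjusted p was under 0.05, with NASP as a star because it was not tested. With Sh-DDX41_1, 40 of 41 S phase genes and 7 of the 9 other members lie below 0 as calls, while the 27 other chaperones centre on -0.11.

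The 6 genes whose pattern across the 9 libraries was most like that of NASP were sought among 9773 genes with at least 5 CPM in sh-Control, by the Euclidean distance between log2 levels relative to the control mean. ACYP1, an acylphosphatase, was nearest (distance 0.596, Pearson r 0.990 over 9 libraries) and went from 9.25 ± 1.38 CPM in sh-Control to 1.65 ± 0.515 with Sh-DDX41_1 and 8.69 ± 0.485 with Sh-DDX41_2. DSCC1 followed at a distance of 1.02, from 68.1 ± 7.09 to 16.2 ± 1.76 and 62.0 ± 1.22 CPM. DPY19L1 (1.15), NEDD4, a ubiquitin ligase (1.19), ELK3, an ETS transcription factor (1.23), and HRSP12 (1.27) completed the 6. DSCC1 was the only gene among them from the lists above. The distance depends on the size of the fall, for which NASP was selected. With Sh-DDX41_1 NASP was at -2.64, and the lowest log2 fold change was -1.10 among the 9 other members. It was -0.998 among the 27 other chaperones. That no other histone chaperone was among the 6 follows from these sizes and is not a finding. The libraries share their group structure, so these likenesses are a description of 3 groups more than of 9 independent points.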

How the data were processed

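RNA-seq was performed on 9 libraries of MOLM13 cells, 3 in each of 3 groups, from poly(A) RNA. The authors deposited whole-number read counts per gene symbol, not normalized. The submitters' processing notes list FastQC 0.11.7, HISAT2 2.0.5 and featureCounts 1.5.2 and the builds hg38 and mm10. The annotation, the strand setting and the treatment of reads with several matches are not given in the sources used here. The labels name a stranded kit and the study's methods an unstranded relative, so genes with antisense overlap are uncertain. Every column matched 1 library.

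Groups came from the labels. In R 4.3.3, edgeR 4.0.16 kept 12712 genes (filterByExpr, minimum count 10, 42.3% of the table), scaled libraries by TMM (0.963 to 1.02) and fitted 1 quasi-likelihood model to all 9 libraries (biological coefficient of variation 0.0768). Tests were two-sided and Benjamini-Hochberg adjusted over all genes within each of 3 contrasts. The precision is that of 260 to 10464 counts per member and library. Scripts were tested on simulated counts. Alternatives were DESeq2 1.42.0 and limma 3.58.1 voom, other scalings and filters, 6 libraries only, a replicate block and each library left out in turn.

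The members and lists were chosen with earlier results of these data known. Named were all members, DDX41, up to 4 called genes with the smallest adjusted p per list and hairpin (ties included) with any called against most of their list, and the 6 genes most like NASP. The S phase list is the common scoring list for that phase, from general knowledge, with any members of this report left out. RBBP4, H3F3B, RPA2, CABIN1, NAP1L4, ANP32E, NCL, MCM6 between the hairpins and the 3 other chaperones higher between them were named after their values were seen. The values of some single genes of the lists are not reported here, though the list totals include them.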

Additional observations from a re-analysis of the deposited data

How the results depend on the processing

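Across 18 alternatives, 7 members beside NASP were called lower with Sh-DDX41_1 in both contrasts and 0 with Sh-DDX41_2 against sh-Control. The small rises were less stable. With Sh-DDX41_1 against sh-Control, 1 member was called higher (HIRA), but 2 with upper quartile factors (HIRA and DAXX), 0 with library size only, with no filter on low counts, with limma voom and with only the 6 libraries compared, and 0 to 2 when 1 library was left out. With Sh-DDX41_2, 0 members were called higher, but 1 (ASF1B, 0.18, adjusted p = 0.0325) with only the 6 libraries compared and 0 to 1 when 1 library was left out. Between the hairpins the count was 1, and 1 to 2 when 1 library was left out. Leaving out 1 library moved all genes called lower with Sh-DDX41_2 between 1108 and 2155 and higher between 946 and 2093, the lowest without library B of Sh-DDX41_2 and the highest without library D of Sh-DDX41_1. With upper quartile factors, 3849 genes were called higher and 2453 lower with Sh-DDX41_1, instead of 3010 and 3068, and the median of all genes moved to 0.09. Near 0, signs turned for HAT1 with Sh-DDX41_2 (-0.023 to 0.088 on leaving out 1 library) and for the log2 ratios with Sh-DDX41_2 of CHAF1B over CHAF1A (-0.011 to 0.095) and SUPT16H over SSRP1 (-0.051 to 0.031). The causes were not tested. NASP stayed between -2.75 and -2.55 with Sh-DDX41_1. With the replicate block, 7 and 1 members were called lower and higher with Sh-DDX41_1 and 0 and 0 with Sh-DDX41_2, and 1885 and 1685 of all genes with Sh-DDX41_2. Libraries of the same letter correlated at -0.06 to 0.24, with 2 of 9 pairs over 0.1. Between sh-Control and Sh-DDX41_1, pairs of the same letter gave 0.073 (A), 0.158 (B) and 0.243 (D). Pairs of different letters in those groups gave -0.184 to 0.066. With Sh-DDX41_2, pairs of the same letter gave -0.057 to 0.023, and not every library correlated best with its own letter. No label says what the letters share, so the main fit had no block. CHAF1B had the fewest counts of the members, 260 to 751 per library.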
